A study of Mus musculus with 6 samples.

Results

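Sarcolipin, the calcium pumps of the endoplasmic reticulum and the channels that let calcium out of that store were followed in mouse corticotrope cells at basal and raised PAM, through 9 of the 23349 genes listed in the deposited sheet. They were taken by symbol: the pump inhibitors Sln and Pln, the pump genes Atp2a1, Atp2a2 and Atp2a3, the inositol trisphosphate (IP3) receptor genes Itpr1, Itpr2 and Itpr3, and the ryanodine receptor gene Ryr2. All 9 symbols were found once. The set was put together with the basal and induced values of these libraries already known, so its differences between the groups are given as a description. No p-values from the fit made here are printed for its genes. Intervals, calls at the threshold and the authors' deposited p-values or q-values are given below, and none of them is an independent test of the set.

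The cells were AtT-20 iPAM, a line from a mouse pituitary tumour of corticotropes, the cells that secrete adrenocorticotropic hormone. In this line PAM, peptidylglycine alpha-amidating monooxygenase, an enzyme of the secretory pathway that amidates peptides, can be induced with doxycycline. Cells of both groups had been passaged in serum-containing medium with the selection drugs G418 and hygromycin. The basal group (3 libraries) received no doxycycline, and the induced group (3 libraries) received 4 micrograms per ml for 48 h, so doxycycline and raised PAM cannot be told apart. The sources used here give neither the promoter of the inducible copy nor the number of clones behind the line. No label names separate cultures as the origin of a group's libraries, and all errors and p-values below therefore reflect library-to-library spread that could be purely technical.

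Values are in TPM, transcript abundance corrected for length and rescaled, which add up to 1000000 in each library and therefore hold no depth; the labels state 16.6 M reads per library. The libraries were made by amplifying chosen stretches of transcripts (AmpliSeq), in which reads need not scale with transcript length. Differences were therefore taken for each gene between libraries. Where genes are set beside each other, by the mark of 1 TPM or by a ratio, their relative levels are only rough. Library names (basal 1, induced 1 and so on) follow the column headings. Pam stood at 66.9 to 92.6 TPM in the basal and at 258 to 507 TPM in the induced libraries. Of 8 corticotrope markers, 7 had a mean of at least 1 TPM, with Pomc between 20446 and 31055 TPM, while Avpr1b was below that level. Because the samples are bulk RNA, fewer cells that express a gene and less RNA per cell cannot be told apart.

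A cell keeps calcium in its endoplasmic reticulum by pumping it in with SERCA, the ATP-driven pumps encoded by the Atp2a genes, and releases it through IP3 receptors and ryanodine receptors. Sarcolipin and phospholamban are very small membrane proteins that bind SERCA and lower its calcium uptake; sarcolipin is known from skeletal muscle and the atria, phospholamban from the heart. In corticotropes, vasopressin acts through a receptor, encoded by Avpr1b, that leads to IP3 and to calcium release, which feeds hormone secretion. In the libraries used here Avpr1b had a mean of 0.0198 TPM.

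The coding sequences of both inhibitors are short enough to be shown whole. They are given because Sln carries the highest difference of the set and Pln, its closest counterpart by function, was near 0 in these cells. Both were read from the GENCODE M21 transcripts on mm10 and lie in 1 coding exon; capitals mark the start and stop codons. Sln codes for 31 amino acids in 96 bases at chr9:53853473-53853568 (plus strand), and Pln for 52 amino acids in 159 bases at chr10:53343864-53344022 (plus strand).
Sln: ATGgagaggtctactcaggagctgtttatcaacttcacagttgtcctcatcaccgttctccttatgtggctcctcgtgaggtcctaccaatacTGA
Pln: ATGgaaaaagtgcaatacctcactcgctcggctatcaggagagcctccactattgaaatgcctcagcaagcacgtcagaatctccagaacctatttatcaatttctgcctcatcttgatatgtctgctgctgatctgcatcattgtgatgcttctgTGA

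Sln, the sarcolipin gene (ENSMUSG00000042045.6, mm10 chr9:53850164-53854560, plus strand), was higher in all induced libraries. It stood at 84.9, 102 and 112 TPM in basal 1 to 3 and at 192, 214 and 259 TPM in induced 1 to 3. The lowest induced library lay well above the highest basal one, so the groups did not overlap. The means were 99.7 ± 13.7 and 221 ± 34.0 TPM (SD, n = 3), a 2.22-fold difference. On the log2(TPM + 1) scale the induced minus basal difference was 1.14 (SE 0.17, 95% confidence interval 0.74 to 1.54). With the column number as a block, a term for libraries that carry the same number, the interval narrowed to 0.95 to 1.33. The labels do not tie these numbers to a shared origin. Over all genes tested the median difference on this scale was -0.04.

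Pln, the phospholamban gene (ENSMUSG00000038583.13, mm10 chr10:53337667-53345987, plus strand), was listed at 0 in 5 libraries and at 0.0356 TPM in basal 3. Its values give no measurable level in either group. Sarcolipin was therefore the inhibitor of this pair with a transcript level above 1 TPM. Other small proteins that act on the pump are given further below.

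Sln is best known as a muscle gene, so 31 striated muscle markers were set beside it. Of these, 25 had a mean below 1 TPM and 7 were at 0 in all libraries, among them the muscle regulators Myod1, Myf5 and Myf6. Their summed level ran from 132 to 176 TPM in the basal and from 152 to 164 TPM in the induced libraries, overlapping ranges. Most of that sum was Nppb, a natriuretic peptide gene of the heart, at 90.2 to 127 TPM over the 6 libraries. Of these markers 6 were tested; 0 had a limma adjusted p under 0.05 over all genes, and 1 had an unadjusted p under 0.05. With the block 2 were called, named after their values were seen: the filament gene Des, which fell, and the embryonic myosin gene Myh3, which rose, where 22.3% of all genes were called. The groups of Des and of Myh3 overlapped. Pvalb, also named after its values were seen, was not called with the block. It stood at 3.58, 3.67 and 3.84 TPM in basal 1 to 3. In induced 1 to 3 its values were 5.12, 7.81 and 4.66 TPM. Its groups did not overlap, with induced libraries higher, as for 9.04% of all genes tested. Those of Mb, at 12.0 to 21.7 TPM, overlapped. Of 15 markers of other pituitary cells and stroma, 13 had a mean below 1 TPM and 6 were at 0 in all libraries. Their summed level was 6.54 to 9.46 TPM in the basal and 4.22 to 5.61 TPM in the induced libraries, mostly Ghrhr and the collagen gene Col1a1, and its part in the differences given here was not tested. Of the 2 of these tested, 0 passed without the block, where 1 had an unadjusted p under 0.05, and Col1a1 fell with it, from 2.52, 4.03 and 3.52 TPM in basal 1 to 3 to 1.59, 1.76 and 1.33 TPM in induced 1 to 3. Of the 7 corticotrope markers tested, 0 passed without the block, where 0 had an unadjusted p under 0.05. With it the glucocorticoid receptor gene Nr3c1 fell and the prohormone convertase gene Pcsk1 rose, but the groups of both overlapped. Nr3c1 stood at 39.2 to 65.9 TPM in the basal and at 24.9 to 52.5 TPM in the induced libraries. Pcsk1 stood at 300 to 444 TPM in the basal and at 393 to 485 TPM in the induced libraries.

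**Figure D1:**
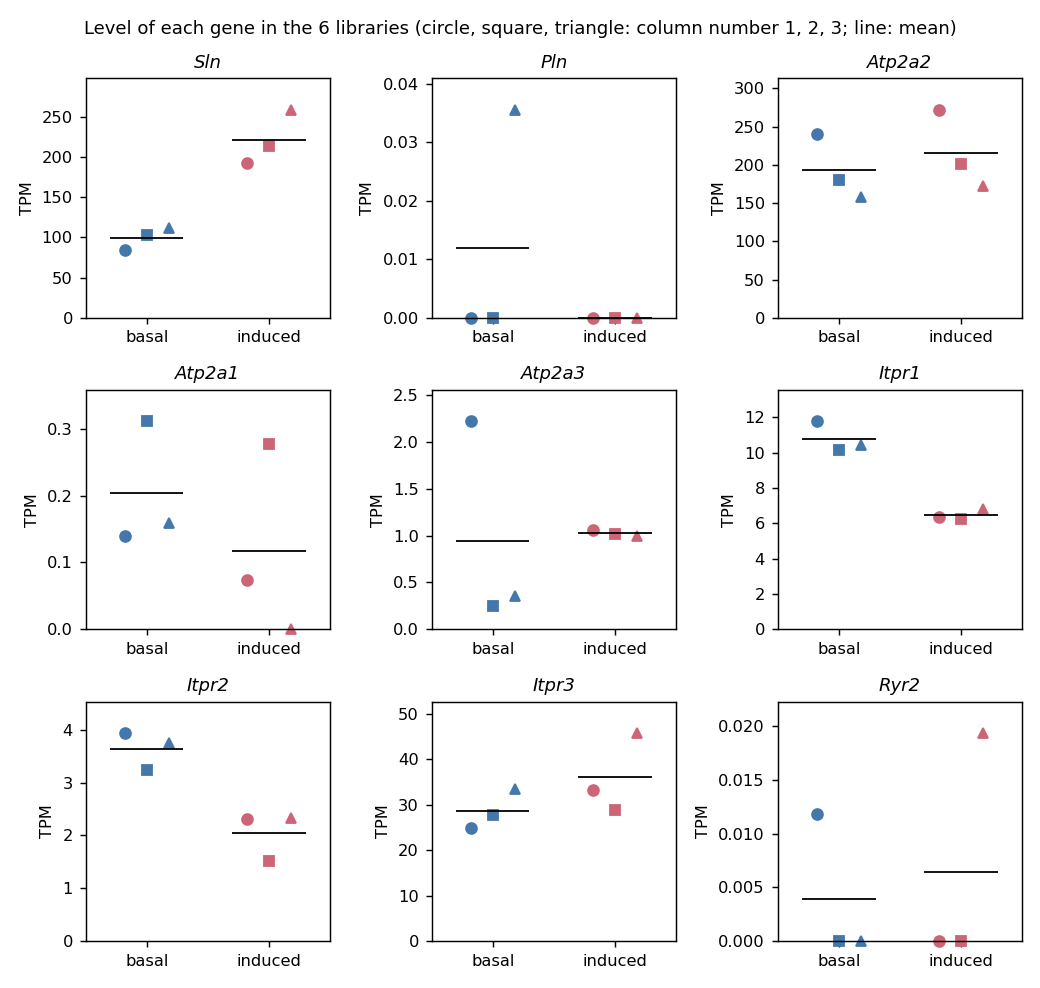
TPM of the 9 genes in 3 basal (blue) and 3 induced (red) libraries; circles, squares and triangles are column numbers 1, 2 and 3, lines are means, and each panel has its own linear axis from 0. Groups do not overlap for Sln, Itpr1 and Itpr2, and the panels of Pln, Atp2a1 and Ryr2 end below 0.5 TPM.

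Among the pump genes, Atp2a2 was the one with a level far above 1 TPM, and its groups overlapped. Atp2a2 (ENSMUSG00000029467.15, mm10 chr5:122453513-122502225, minus strand) encodes SERCA2, the pump of the heart and, in another splice form, of most other cells. It stood at 241, 181 and 159 TPM in basal 1 to 3 and at 272, 201 and 173 TPM in induced 1 to 3. Libraries numbered 1 were highest and those numbered 3 lowest in both groups, and each induced library was above the basal library of its number. The means were 193 ± 42.6 and 215 ± 51.1 TPM (SD, n = 3). The log2 difference was 0.15 (SE 0.22, 95% confidence interval -0.38 to 0.68), and with the block the interval was -0.03 to 0.33.

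Atp2a3 and Atp2a1 were low. Atp2a3 (ENSMUSG00000020788.15, mm10 chr11:72961169-72993044, plus strand), the SERCA3 gene of blood cells, endothelium and some secretory cells, stood at 2.22, 0.244 and 0.354 TPM in basal 1 to 3 and at 1.06, 1.02 and 0.995 TPM in induced 1 to 3. Basal 1 stood above all induced libraries while basal 2 and 3 stood below them, so neither group was consistently higher. Its mean over the 6 libraries, 0.982 TPM, fell just short of the 1 TPM asked for in the fit, whereas Itpr2, the lowest gene of the set to be fitted, had a mean of 2.85 TPM. Atp2a1 (ENSMUSG00000030730.12, mm10 chr7:126445858-126463108, minus strand), the pump gene of fast skeletal muscle, did not exceed 0.311 TPM in any library and was at 0 in induced 3.

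Among the IP3 receptor genes, Itpr1 and Itpr2 were lower in every induced library than in any basal one, and the groups of Itpr3 overlapped. Itpr1 (ENSMUSG00000030102.11, mm10 chr6:108213096-108551109, plus strand) encodes the receptor type that predominates in brain. It stood at 11.8, 10.2 and 10.4 TPM in basal 1 to 3 and at 6.36, 6.25 and 6.81 TPM in induced 1 to 3. Both groups were tight and did not overlap. The means were 10.8 ± 0.861 and 6.47 ± 0.296 TPM (SD, n = 3), 1.67-fold lower in induced cells, and the log2 difference was -0.66 (SE 0.14, 95% confidence interval -0.99 to -0.32; with the block -0.93 to -0.38).

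Itpr2 (ENSMUSG00000030287.15, mm10 chr6:146108299-146502223, minus strand) encodes the type most sensitive to IP3. It stood at 3.94, 3.24 and 3.74 TPM in basal 1 to 3 and at 2.3, 1.52 and 2.33 TPM in induced 1 to 3. The groups did not overlap, and the libraries numbered 2 were the lowest of each. The means were 3.64 ± 0.362 and 2.05 ± 0.460 TPM (SD, n = 3), 1.78-fold lower in induced cells. The log2 difference was -0.61 (SE 0.18, 95% confidence interval -1.04 to -0.18; with the block -0.97 to -0.26), a scale on which the added 1 shrinks the change of a gene this low.

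Itpr3 (ENSMUSG00000042644.9, mm10 chr17:27057304-27122223, plus strand) encodes the type common in secretory epithelia. It stood at 25.0, 27.7 and 33.5 TPM in basal 1 to 3 and at 33.3, 28.9 and 45.9 TPM in induced 1 to 3. Each induced library was above the basal library of its number, but the groups overlapped, since induced 1 and 2 lay below basal 3. The means were 28.7 ± 4.33 and 36.0 ± 8.82 TPM (SD, n = 3), and the log2 difference was 0.30 (SE 0.21, 95% confidence interval -0.19 to 0.79). With the block the interval was 0.05 to 0.55.

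Ryr2 (ENSMUSG00000021313.16, mm10 chr13:11553102-12106945, minus strand), the ryanodine receptor gene of the heart, was at 0 in 4 libraries and at 0.0118 and 0.0194 TPM in basal 1 and induced 3. Its relatives Ryr1, of skeletal muscle, and Ryr3 had means of 0.0666 and 0.00345 TPM over the 6 libraries. Release channel transcripts above 1 TPM in these cells were thus, among the 6 receptor genes measured, those of the IP3 receptors.

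Of the 9 genes, 5 reached the mean of 1 TPM and entered the fit over 12400 genes, and 4 (Pln, Atp2a1, Atp2a3 and Ryr2) did not. Of the 5, 1 passed the limma threshold, Sln on the higher side, where 0.129% of all genes tested were called higher, 1.06% lower and 1.19% in either direction. That call ended without basal 1, without basal 2, without basal 3, without induced 1 and without induced 2, in which 0 to 15 of all genes passed, and also after median ratio scaling. With the block 3 of the 5 passed, Sln as higher and Itpr1 and Itpr2 as lower, beside 8.23% of all genes called higher, 14.0% called lower and 22.3% either way. Groups that did not overlap were found for 3 of the 5 and for 21.6% of all genes tested, 9.04% with induced libraries higher and 12.6% with them lower. The set was chosen with this contrast known, and nothing is read from these counts.

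Ratios within a library do not depend on how libraries were scaled. The ratio of Sln to Atp2a2 was 0.352, 0.566 and 0.706 in basal 1 to 3 and 0.706, 1.06 and 1.5 in induced 1 to 3. The groups did not overlap, but basal 3 and induced 1 were equal to 3 digits. Between libraries of the same number, which are not known to be pairs, the ratio was 1.88 to 2.12 times as high in induced cells. The mean ratio went from 0.541 ± 0.178 to 1.09 ± 0.396 (SD, n = 3). Taken between the groups without use of the column numbers, the log2 difference of this ratio was 0.998 (SE 0.431). The other ratios were chosen after the values were seen. The ratio of Itpr3 to Itpr1 was 2.12, 2.73 and 3.21 in basal 1 to 3 and 5.24, 4.62 and 6.74 in induced 1 to 3, with no overlap. The ratio of Itpr3 to Itpr2 was 6.33, 8.56 and 8.94 in the basal and 14.5, 19 and 19.7 in the induced libraries, also apart, and 2.2 to 2.28 times as high between libraries of the same number. The ratio of Itpr1 to Itpr2 was 2.99, 3.14 and 2.79 in the basal and 2.76, 4.12 and 2.92 in the induced libraries, which overlapped. The genes of these ratios carry different amplicons, so a ratio is no count of molecules, and a ratio alone does not say which of its 2 transcripts differed.

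**Figure D2:**
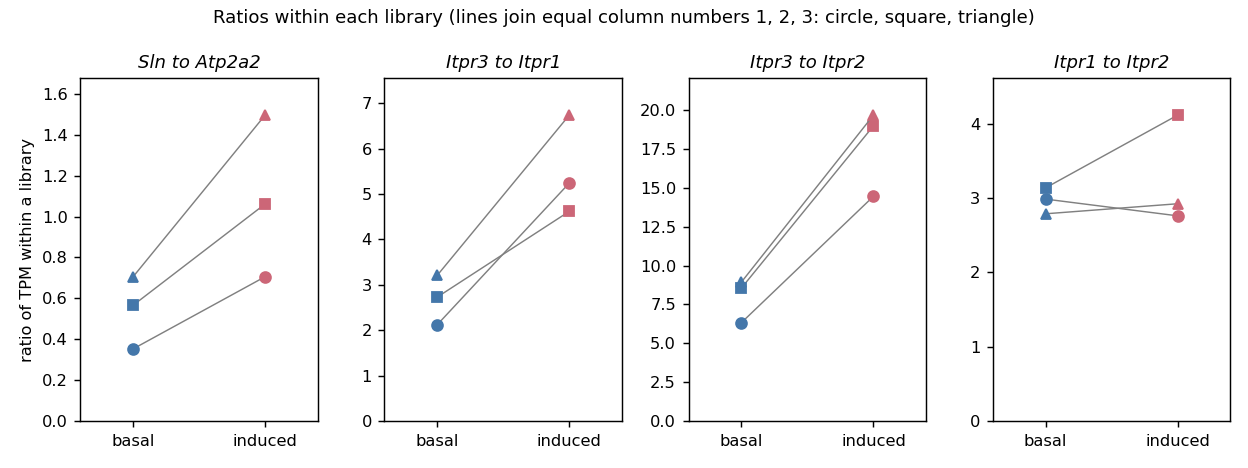
Ratio of the TPM of 2 genes within each library, on linear axes from 0, for 3 basal (blue) and 3 induced (red) libraries. Lines join equal column numbers, which are not known to be pairs. The ratios of Itpr3 to Itpr1 and to Itpr2 separate the groups, Sln to Atp2a2 rises along each line with basal 3 and induced 1 both near 0.706, and Itpr1 to Itpr2 overlaps.

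Promoters are shown for Itpr2 and Itpr3, members of 1 family of which Itpr2 was lower in every induced library and Itpr3 was not. RefSeq promoters (GRCm38.p6, the assembly of mm10, 250 bases before to 50 after the start) were matched for 6 of the 9 genes. None was matched for Sln, Atp2a2 and Itpr1, so Itpr1, also lower in every induced library, could not be set beside them. Capitals mark the GC box GGGCGG on either strand. The Itpr2 window is chr6:146502174-146502473 (minus strand) and the Itpr3 window chr17:27057054-27057353 (plus strand).
Itpr2: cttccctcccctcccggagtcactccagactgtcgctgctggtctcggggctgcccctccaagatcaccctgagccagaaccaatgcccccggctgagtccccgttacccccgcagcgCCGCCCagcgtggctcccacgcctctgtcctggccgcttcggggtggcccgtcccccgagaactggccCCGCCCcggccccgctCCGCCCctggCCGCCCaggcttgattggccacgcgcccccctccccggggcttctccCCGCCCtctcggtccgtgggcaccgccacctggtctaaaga
Itpr3: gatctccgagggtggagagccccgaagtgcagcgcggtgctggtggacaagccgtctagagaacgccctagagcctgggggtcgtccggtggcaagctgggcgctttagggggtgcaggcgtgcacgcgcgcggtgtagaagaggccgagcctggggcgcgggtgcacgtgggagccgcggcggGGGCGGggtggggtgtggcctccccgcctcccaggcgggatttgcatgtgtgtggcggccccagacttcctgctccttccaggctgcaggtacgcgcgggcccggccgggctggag

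Both windows were rich in G and C, at 73.3% for Itpr2 and 72.3% for Itpr3, against a median of 52.7% over 32851 promoters of that length. The GC box, a sequence that Sp factors bind, was found 5 times in Itpr2 and 1 time in Itpr3, and at least once in 35.7% of all promoters. The E-box CACGTG was found 1 time in Itpr3 and in 7.15% of promoters. The letters TGACG (in 20.8% of promoters), TATAAA (13.6%) and TGANTCA (7.81%), searched on both strands, are not in either window. None of these motifs overlapped a GC box in the windows shown. In the matched windows that are not shown, the GC box was found 5 times in Atp2a3, 2 times in Ryr2 and 0 times in Pln and Atp2a1. Atp2a3, in which neither group was consistently higher, thus had as many as Itpr2. The matches describe letters and were not tied to the expression values.

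Other genes of calcium handling, grouped by role, were counted in the same fit over all genes. These lists, like the set, were chosen with earlier results of these data known. Their counts and p-values are therefore a description and no independent test. Of 84 such genes tested in 7 lists, 0 passed the limma threshold. At an unadjusted p under 0.05, 6 were higher and 7 lower, beside 686 and 1185 of all 12400 genes. With the block 9 rose and 9 fell, beside the shares of 8.23% and 14.0% over all genes. Their median log2 difference was -0.02, beside -0.04 over all genes. In the authors' deposited Cuffdiff table, which lists 9.22% of the genes above 0, 7 genes of these lists were higher and 9 lower in induced cells. The authors' deposited limma table holds 1 of them, Itpka. Genes said below to have moved with the block did so in limma with adjusted p under 0.05; those not among the 2 smallest p of a list were named after their values were seen.

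Proteins that act on the pump had values on both sides. Of 8 tested, 0 passed in limma without the block (1 had an unadjusted p under 0.05). With the block 3 rose and 1 fell, beside 8.23% and 14.0% of all genes. Srl, which encodes sarcalumenin, a luminal protein of muscle known to stabilise SERCA, averaged 5.34 ± 0.218 TPM in the basal and 10.1 ± 1.46 TPM in the induced libraries (SD, n = 3), where limma gave an adjusted p of 0.0731, or of 0.00313 with the block. The myoregulin gene Mrln, listed under the older symbol 2310015B20Rik and known as another small SERCA inhibitor of skeletal muscle, stood at 1.68 ± 0.853 and 3.88 ± 2.12 TPM (SD, n = 3), where limma gave an adjusted p of 0.445, or of 0.0139 with the block. Tmem64, a regulator of SERCA2 described in bone cells, rose and Vmp1, a membrane protein that acts on SERCA in autophagy, fell with the block. The groups of Mrln, Tmem64 and Vmp1 overlapped, and those of Srl did not. Hrc, a calcium-binding protein of the sarcoplasmic reticulum, was below 1 TPM. Arln, listed under the older symbol 1810037I17Rik, and Smim6 are further small proteins of this list that act on the pump. Both were named after their values were seen. Arln averaged 551 ± 161 TPM in the basal and 415 ± 209 TPM in the induced libraries (SD, n = 3). Over the 6 libraries Arln had a mean of 483 TPM, beside 161 TPM for Sln, a rough comparison between genes. Sarcolipin was thus not the highest transcript of a small protein acting on the pump. The limma adjusted p of Arln was 0.686, or 0.0570 with the block. Smim6 averaged 3.58 ± 2.18 and 4.78 ± 0.952 TPM (SD, n = 3), with a limma adjusted p of 0.688, or of 0.155 with the block. The groups of both overlapped.

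Of 21 partners of the release channels tested, 0 passed in limma (2 higher and 3 lower at an unadjusted p under 0.05), and 2 rose and 3 fell with the block, shares near the 8.23% and 14.0% of all genes. Itprip, an inhibitor of IP3 receptor calcium release, stood at basal and induced means of 17.7 ± 0.584 and 10.3 ± 1.02 TPM (SD, n = 3), where limma gave an adjusted p of 0.0689, or of 0.00266 with the block. Ssfa2, which holds IP3 receptors near the plasma membrane, stood at 43.9 ± 2.30 and 28.8 ± 3.18 TPM (SD, n = 3), where limma gave an adjusted p of 0.108, or of 0.00372 with the block. Jph4, a junctophilin that ties the endoplasmic reticulum to the plasma membrane, also fell with the block. Tpcn2, a calcium channel of lysosomes, rose with the block, from 7.54 to 11.6 TPM.

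Genes that make or remove IP3 had a negative log2 difference in 8 of 10 tested, beside 6833 of all 12400 genes, and a median of -0.17. In limma 0 passed (2 lower at an unadjusted p under 0.05) and with the block 3 fell, beside 14.0% of all genes. Itpka, a kinase that turns IP3 into inositol tetrakisphosphate, stood at basal and induced means of 8.55 ± 2.11 and 3.20 ± 0.293 TPM (SD, n = 3), where limma gave an adjusted p of 0.0545, or of 0.00246 with the block, and its relative Itpkb at 10.6 ± 0.516 and 6.95 ± 1.97 TPM (SD, n = 3), where limma gave an adjusted p of 0.258, or of 0.0245 with the block. The phospholipase C gene Plcb4, which makes IP3, was the other that fell with the block, from 15.5 to 11.1 TPM with overlapping groups.

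Calcium-binding proteins inside the reticulum numbered 13 tested genes, of which 0 passed in limma (2 higher and 1 lower at an unadjusted p under 0.05). With the block 2 rose and 1 fell, beside 8.23% and 14.0% of all genes. Pdia4, a disulfide isomerase, stood at basal and induced means of 144 ± 14.5 and 200 ± 15.9 TPM (SD, n = 3), where limma gave an adjusted p of 0.159, or of 0.00472 with the block. Calr4, a calreticulin relative, stood at 14.2 ± 4.35 and 7.77 ± 0.395 TPM (SD, n = 3), where limma gave an adjusted p of 0.159, or of 0.0126 with the block. Hspa5, the chaperone BiP, which binds much of the calcium in the store, rose with the block from 850.2 to 1144 TPM. The muscle calcium buffers Casq1 and Casq2 had means of 0.234 and 0 TPM.

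Store-operated entry, by which an emptied store is refilled from outside the cell, had 9 tested genes with 0 passing in limma (1 higher at an unadjusted p under 0.05). With the block 1 gene rose, beside 8.23% of all genes. That gene was Orai1, the pore of the entry channel, at basal and induced means of 14.6 ± 1.13 and 22.0 ± 2.69 TPM (SD, n = 3), where limma gave an adjusted p of 0.153, or of 0.00613 with the block. Tmem110, now named Stimate, a partner of the store sensor Stim1, stood at 12.1 ± 1.54 and 9.33 ± 1.08 TPM (SD, n = 3), where limma gave an adjusted p of 0.414, or of 0.0567 with the block.

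Pumps and exchangers outside the reticulum had 9 tested genes with 0 passing in limma and 0 at an unadjusted p under 0.05. With the block 1 gene rose, beside 8.23% of all genes. It was Atp2b2, a calcium pump of the plasma membrane, at basal and induced means of 9.49 ± 1.41 and 14.3 ± 4.01 TPM (SD, n = 3), where limma gave an adjusted p of 0.370, or of 0.0168 with the block, with overlapping groups. Atp2c2, a pump of the Golgi, stood at 2.67 ± 0.262 and 1.81 ± 0.935 TPM (SD, n = 3), where limma gave an adjusted p of 0.515, or of 0.144 with the block. Of 14 tested genes of mitochondrial calcium uptake, 0 passed in limma (1 lower at an unadjusted p under 0.05). With the block 1 gene fell, beside 14.0% of all genes. It was Ccdc109b, now named Mcub, a subunit that dampens the uniporter, at 21.7 ± 4.19 and 12.1 ± 1.80 TPM (SD, n = 3), where limma gave an adjusted p of 0.124, or of 0.00783 with the block. Efha1, now named Micu2, a gatekeeper of the uniporter, stood at 24.8 ± 1.33 and 30.5 ± 1.70 TPM (SD, n = 3), where limma gave an adjusted p of 0.375, or of 0.0654 with the block.

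**Figure D3:**
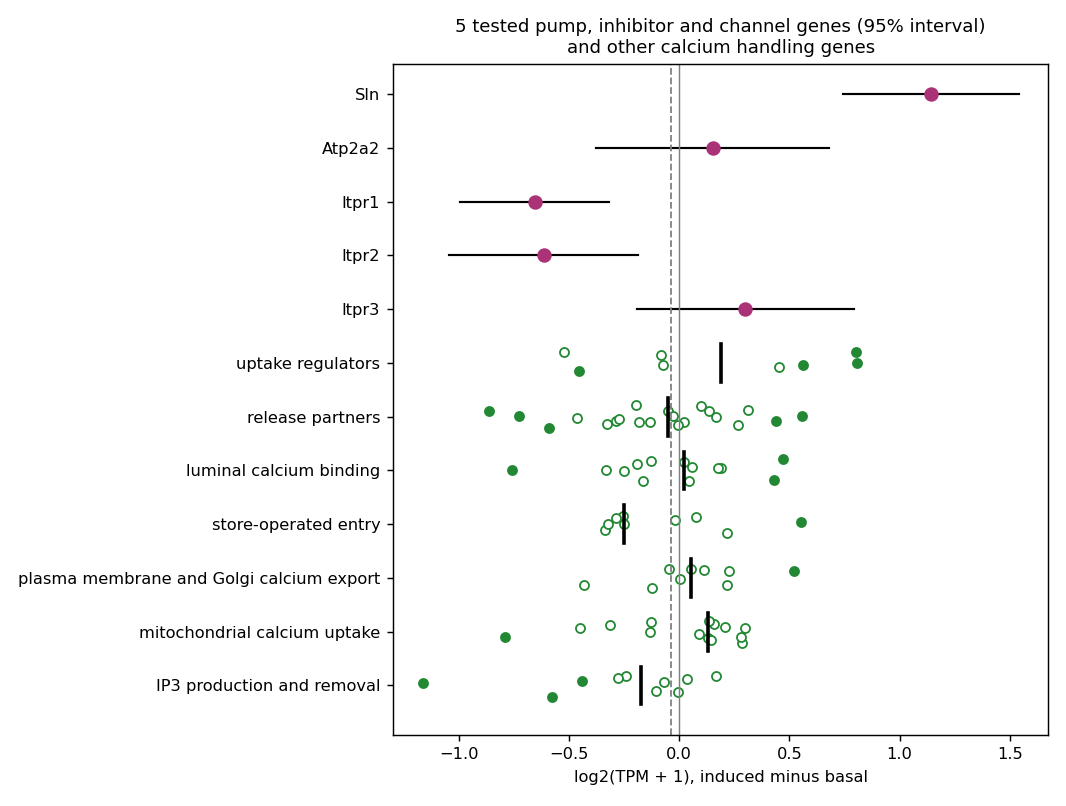
Induced minus basal difference in log2(TPM + 1): filled circles with bars are 5 genes of the set with 95% confidence intervals, green circles are the tested genes of 7 other lists (filled where limma with the block called them), black ticks are list medians and the dashed line is the median of all genes, -0.04. Sln lies at 1.14, Itpr1 and Itpr2 lie at -0.66 and -0.61, and the list medians lie between -0.25 and 0.19.

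The authors' own comparisons hold 3 of the 9 genes. In the authors' deposited Cuffdiff table Sln has 50.3 FPKM in the basal and 113 FPKM in the induced group, a log2 fold change of 1.17. The same authors' deposited table gives Itpr1 5.46 and 3.31 FPKM, a log2 fold change of -0.72, and Itpr2 1.84 and 1.04 FPKM, a log2 fold change of -0.82. All 3 have the q-value 4.1e-04 in the authors' deposited table, and 9.22% of the genes above 0 are listed there. Itpka and Srl share this q-value, the smallest there among genes of the set and the lists, so it does not rank these genes. The authors' deposited DESeq2 table, with 1.16% of those genes, holds Sln with a log2 fold change of 1.58 (adjusted p = 2.1e-16), and the authors' deposited limma table, with 0.869%, holds Sln at 1.14 (adjusted p = 0.0364). In the latter the interval is printed as -1.54 to -0.74, that is, with the sign opposite to the fold change beside it. Sln is also in the authors' deposited core list, which holds 0.339% of the genes above 0. These tables rest on the same 6 libraries and add no independent measurement.

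The genes whose profile lay nearest to that of Sln were found by the root mean square distance between log2(TPM + 1) values over the 6 libraries, each gene centred on its own mean, among 12380 genes. They were 6430573F11Rik at a distance of 0.108, Umodl1 at 0.121, Ffar2, a receptor for short-chain fatty acids, at 0.144, Tprg at 0.160 and Gm14393 at 0.164. The nearest, 6430573F11Rik, stood at 2.13, 2.69 and 2.93 TPM in basal 1 to 3 and at 4.94, 6.06 and 6.73 TPM in induced 1 to 3, which like Sln was lowest in the libraries numbered 1 and highest in those numbered 3 of each group. Ffar2 stood at 8.72, 7.79 and 11.7 TPM in the basal and at 18.8, 22.5 and 24.4 TPM in the induced libraries. Umodl1 averaged 0.433 and 2.47 TPM in the basal and induced libraries (5.7-fold) and Tprg 0.612 and 2.2 TPM (3.6-fold), so both reached the mean of 1 TPM only through the induced group. Gm14393 averaged 3.75 and 7.98 TPM. With a pseudocount of 0.1 the nearest 5 shared 3 genes with these.

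Most settings left the size of these differences close to the reported one. A shift of the induced libraries alone moved all 5 upward, which follows from the shift itself. Its size was a median over the genes that the authors' deposited DESeq2 table lists, 1.16% of the genes above 0. Shifting the induced libraries to the scale of the authors' deposited DESeq2 table, a step of 0.42 in log2 units that puts the median of all genes at 0.36, gave Sln 1.56, Atp2a2 0.57, Itpr3 0.71, Itpr1 -0.28 and Itpr2 -0.32. Relative to the median of all genes, Sln was 1.18 above it as reported and 1.2 above it on that scale, Atp2a2 0.19 and 0.21 above, and Itpr3 0.34 and 0.35 above. Itpr1 differed from the median by -0.62 and -0.64, and Itpr2 by -0.58 and -0.68. Atp2a2 changed sign, to -0.03, when induced 1 was left out.

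**Figure D4:**
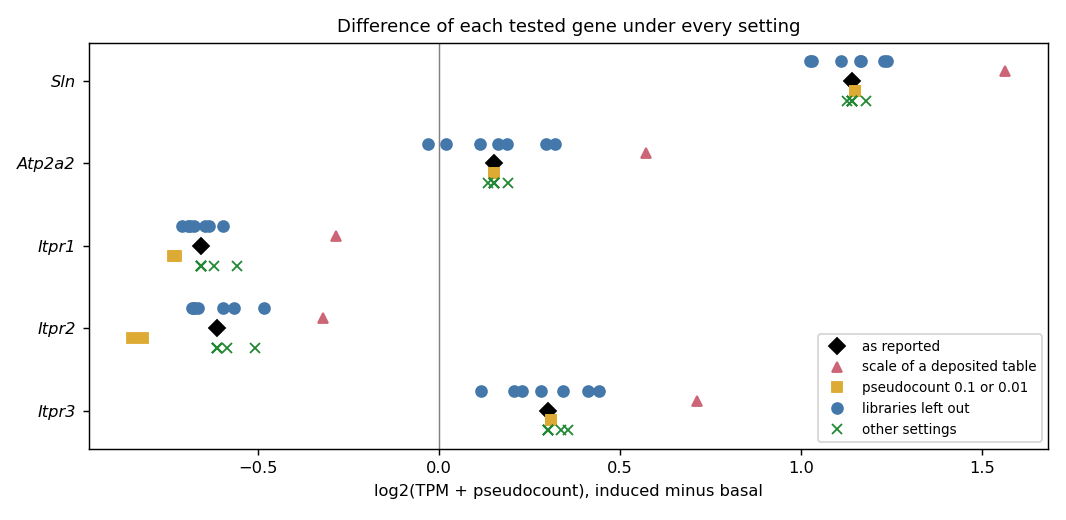
Induced minus basal difference of the 5 tested genes on the log2 scale under every setting: diamonds are the reported values, circles have libraries left out, squares have smaller pseudocounts, triangles have the scale of the authors' deposited DESeq2 table and crosses are the other settings. Sln stays between 1.02 and 1.56 and Itpr1 between -0.73 and -0.28, while Atp2a2 comes as low as -0.03.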

How the data were processed

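Transcript levels were measured in 3 basal and 3 induced AtT-20 iPAM libraries. The submitters' processing notes list TopHat2 2.0.9 with Bowtie2 2.1.0.0, Cufflinks 2.2.0, Cuffdiff 2.2.0, DESeq2 and limma on mm10; the sources used here give no annotation or settings. The deposited main sheet is named for FPKM, but its columns each sum to 1000000, so its values are TPM and hold no depth, which sets no counting interval. Per the file headers, the authors' deposited comparison tables give FPKM, log2 fold changes, p-values or q-values and, from limma, a B score; the core list gives symbols. Column names show the group and a number and the labels show letters, so columns were matched to groups.

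After adding 1 TPM and taking log2, the 12400 genes averaging 1 TPM or more were fitted in limma 3.58.1, R 4.3.3, with a mean-variance trend and Benjamini-Hochberg adjustment over all genes; the threshold was 0.05. The fit was checked on simulated data with independent noise in each library. Those data lacked the correlation between libraries given next, so the check does not cover it. Deviations from the group means correlated at 0.46, 0.18 and 0.72 between libraries numbered 1, 2 and 3, so the column number was also fitted as a block. Basal 1 with induced 2 (0.32) and basal 2 with induced 1 (0.28) lay above the 0.18 of the libraries numbered 2, so only number 3 stood apart from the others; the labels do not tie the numbers to a shared origin. The named genes are the set, Pam, in each of 7 lists the 2 genes of smallest p, the 5 nearest to Sln and genes said to be named after their values. The set and the lists were chosen with earlier results of these data known. Alternatives were other pseudocounts, filters, scalings, moderation, the block and fewer libraries. The values of 1 list gene are not reported here. An alternative for counts was not needed because the values are TPM.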

Additional observations from a re-analysis of the deposited data

How the results depend on the processing

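Over all 12400 genes, 16 were called higher and 132 lower in induced cells (limma). With the replicate block (column number) the counts were 1021 and 1740. Higher calls were 10 with a pseudocount of 0.1, 8 with a filter at 5 TPM, 28 after quantile normalization, 1859 on the deposited DESeq2 scale and 187 without both libraries numbered 3; lower calls were 85 with the filter at 5 TPM and 501 without both libraries numbered 3. Leaving out 1 library gave 0 to 33 higher and 0 to 222 lower calls, with most without induced 3.

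Of the 5 fitted genes of the set, 1 passed as reported, 3 with the block, 0 after median ratio scaling and 0 to 1 without a single library. Itpr2 had a log2 difference of -0.82 with a pseudocount of 0.1 and -0.85 with 0.01, where a low gene is shrunk less. Itpr1 was at -0.56 after quantile normalization. On the deposited DESeq2 scale Sln was at 1.56, Atp2a2 at 0.57, Itpr1 at -0.28, Itpr2 at -0.32 and Itpr3 at 0.71, a step set by the shift itself. Without a single library Sln ran from 1.02 to 1.24, Atp2a2 from -0.03 to 0.32, Itpr1 from -0.69 to -0.60, Itpr2 from -0.68 to -0.48, Itpr3 from 0.12 to 0.44 and the log2 difference of the ratio of Sln to Atp2a2 from 0.72 to 1.28.

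With the replicate block, higher calls numbered 3 for uptake regulators, 2 for release partners, 2 for luminal calcium binding, 1 for store-operated entry and 1 for export, and lower calls 1 for uptake regulators, 3 for release partners, 1 for luminal binding, 1 for mitochondrial uptake and 3 for IP3 production and removal, each against 0 as reported. On the deposited DESeq2 scale higher calls were 1, 4, 3, 1, 1 and 4 for uptake regulators, release partners, luminal binding, store-operated entry, export and mitochondrial uptake, with 1 lower call for IP3 production and removal. Without both libraries numbered 3 there was 1 higher call for uptake regulators and 2 for luminal binding, and 1 lower call each for release partners, mitochondrial uptake and IP3 production and removal. Leaving out 1 library gave 0 calls for every list, and the block changed no other call among the genes of the set and the lists. Apart from the scale shift and the block, the cause of these changes was not tested. Read counts per gene are unknown, so levels near 0 (Pln, Ryr2, Atp2a1) have no counting limit, and 3 libraries a group bound the precision of all others.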
